A study of Mus musculus with 18 samples.

Results

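Small RNA of BV-2 cells, an immortalised mouse microglial line, was sequenced in 18 files whose titles carry the numbers 22 to 39, each number used once. The 6 files numbered 22 to 27 hold 1 file of each of the 6 treatments, and the 12 files numbered 28 to 39 hold 2 files of each treatment. The block of files 22 to 27 was set against files 28 to 39 within treatment, over the 1363 of 2134 features (hairpins and mature miRNAs of miRBase) that had at least 10 reads summed over the 18 files. The treatments were no addition (Ctrl), lipopolysaccharide at 100 ng/ml for 4 h (LPS), cannabidiol at 10 µM for 6 h (CBD), Δ9-tetrahydrocannabinol at 10 µM for 6 h (THC), and each cannabinoid given 2 h before LPS (CBD_LPS and THC_LPS). All files came from the same line. BV-2 is a transformed line and not primary microglia. The labels give no culture, day or extraction for a file, so what the files of a block share beyond their run of numbers is not stated. By the study's methods, the 18 libraries were multiplexed in 1 pool. The features were chosen by the CPM values of these same files, miR-210 first among them, so the differences between the blocks are given as a description with standard errors and without a test.

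A miRNA gene is transcribed as a long primary RNA, often together with neighbouring miRNA genes or from within an intron of a host gene. The hairpin is cut out and diced into a duplex, whose 5p and 3p arms are the mature forms. The seed, bases 2 to 8 of the mature form, sets most of the pairing with target mRNAs. miR-210 is the best known miRNA induced by low oxygen. Its gene is switched on by hypoxia-inducible factor, and it represses the scaffold proteins that assemble iron-sulphur clusters for mitochondrial respiration. In microglia, the miRNAs known for the response to LPS are miR-155, which rises strongly with Toll-like receptor signalling, and miR-146a, which damps that signalling.

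The mature sequences below are those that the comparisons turn on. They were copied from RefSeq (GRCm38.p6) and are written 5′ to 3′ with the seed in capitals. Both arms of miR-210 are shown because they differed most between the blocks:
miR-210-3p: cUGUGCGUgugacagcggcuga
miR-210-5p: aGCCACUGcccaccgcacacug
The next pairs share a seed, and the first member of each differed more between the blocks than the second:
miR-181a-5p: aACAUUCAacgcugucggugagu
miR-181b-5p: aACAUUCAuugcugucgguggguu
miR-26a-5p: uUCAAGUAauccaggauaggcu
miR-26b-5p: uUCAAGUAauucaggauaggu
miR-93-5p: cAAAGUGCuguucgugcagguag
miR-106b-5p: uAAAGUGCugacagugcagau
miR-19a-3p: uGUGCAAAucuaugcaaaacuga
miR-19b-3p: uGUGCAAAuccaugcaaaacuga
let-7c-5p: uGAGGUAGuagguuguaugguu
let-7f-5p: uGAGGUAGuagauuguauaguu
In these pairs both members share their seed and were lower in the block:
miR-221-3p: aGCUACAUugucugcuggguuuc
miR-222-3p: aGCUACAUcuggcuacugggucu
miR-100-5p: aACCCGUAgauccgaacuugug
miR-99a-5p: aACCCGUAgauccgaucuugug
miR-500-3p: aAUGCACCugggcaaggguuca
miR-501-3p: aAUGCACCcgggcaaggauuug
The last pair holds almost the same bases with the start moved by a base, so their reads may not be told apart:
miR-1843a-5p: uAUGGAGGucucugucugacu
miR-1843b-5p: aUGGAGGUcucugucugacuu

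The values are CPM, that is, reads divided by the library size (scaled by a trimmed-mean factor, TMM) and multiplied by 1e6. The reads behind them could be recovered, and summed to between 442718 and 1057147 a file. At this depth 3 reads stood for 2.98 to 6.38 CPM, a floor for counting error alone. Of the blood-lineage markers, miR-142-3p was abundant in both blocks, with 2095 to 3318 CPM in files 22 to 27 and 1486 to 2015 in files 28 to 39, and miR-223-3p was less abundant, at 48.5 to 178 CPM over all files. miR-150-5p had 75 reads in all, and the red-cell miRNAs miR-451a and miR-144-3p had 12 and 2. The markers of other cells were mixed. miR-124-3p of neurons, miR-122-5p of liver and miR-145a-5p of smooth muscle had 5 reads or fewer in all, but miR-145a-3p had 18661 reads, miR-128-3p, frequent in neurons, 6607, miR-126-5p of endothelium 5975 (a difference between the blocks of 0.73 on the log2 scale) and miR-199a-3p of fibroblasts 2427. miR-141-3p of epithelium was at 5525 to 8978 CPM. The whole list took 1.11% of the reads in files 22 to 27 and 1.05% in files 28 to 39. None of its 38 tested features passed the rule below in either direction. The 4 files with the lowest share of reads on 3 abundant hairpins, mir-6243, mir-6236 and mir-6240, were Ctrl 22, THC_LPS 27, CBD 30 and CBD 36, at 0.151% to 0.361% against 1.20% to 4.55% in the other 14 files.

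A feature was counted when the file of 22 to 27 lay beyond both files of 28 to 39 on the same side in all 6 treatments and the mean difference was at least 1.5-fold. By this rule 53 features were lower in files 22 to 27, 3.89% of those tested, and 20 were higher, 1.47%. These shares come from the values that the split was drawn from, and nothing is read from them. The lower features were 48 mature miRNAs and 5 hairpins, and the higher ones 12 mature miRNAs and 8 hairpins. At 2-fold or more, 30 of the lower and 9 of the higher features passed. Leaving out Ctrl 22 gave 76 lower and 32 higher and leaving out CBD 24 gave 62 and 33, with the rule then over the 5 treatments left. The balance of the directions depended on the scaling. TMM factors were 1.03 to 1.28 in files 22 to 27 and 0.886 to 1.13 in files 28 to 39. With library size alone, 35 features were lower and 49 higher, and all tested features moved up by a median of 0.19 on the log2 scale. Scaled by miR-103-3p and miR-191-5p, often used as reference miRNAs, 21 were lower and 90 higher, with a median shift of 0.31. All 53 lower features kept a negative difference and all 20 higher features a positive one under these 2 scalings and under DESeq2-type size factors, although 34, 21 and 46 of the 53 still passed the rule in turn. The median shifts were smaller than the 1.5-fold limit, so the kept signs are no separate support. miR-103-3p was itself lower in the block, at 4239 to 6013 CPM against 6064 to 7910.

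miR-210-3p differed most. In files 22 to 27 it lay at 232 CPM in Ctrl, 184 in LPS, 272 in CBD, 180 in THC, 226 in CBD_LPS and 256 in THC_LPS. In files 28 to 39 the lowest value was 911 CPM, the median 1923 and the highest 2493. The blocks did not overlap. The lowest of the 12 was Ctrl 34, followed by the CBD files 30 and 36 at 1313 and 1320 CPM, and the other 9 files lay between 1907 and 2493. The difference was -2.99 on the log2(CPM + 1) scale (SE 0.16), 7.96-fold lower in files 22 to 27, and ranged over the treatments from -2.27 in CBD to -3.41 in THC. miR-210-5p was at 32.8 to 72.3 CPM (median 55.3) against 170 to 383 (median 303), a difference of -2.45 (SE 0.19), again without overlap. The mir-210 hairpin differed by -1.90 (SE 0.40) but did not pass the rule. Its CBD file 24, at 28.7 CPM, lay between CBD 30 at 18.8 and CBD 36 at 39.5, and its lowest values were 4.25 CPM in Ctrl 22 and 3.55 in THC_LPS 27, both files with a low share of the abundant hairpins. The Mir210 gene lies at chr7:141221384-141221493 on the minus strand (GRCm38.p6), and no annotated gene of that strand spans it. As ratios within a file, which no scaling can alter, miR-210-3p over miR-103-3p was 0.0338 to 0.0498 in files 22 to 27 and 0.150 to 0.315 in files 28 to 39. The 3p arm exceeded the 5p arm 3.21- to 6.86-fold in the block and 5.34- to 7.60-fold outside it, and these ranges overlapped.

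**Figure D1:**
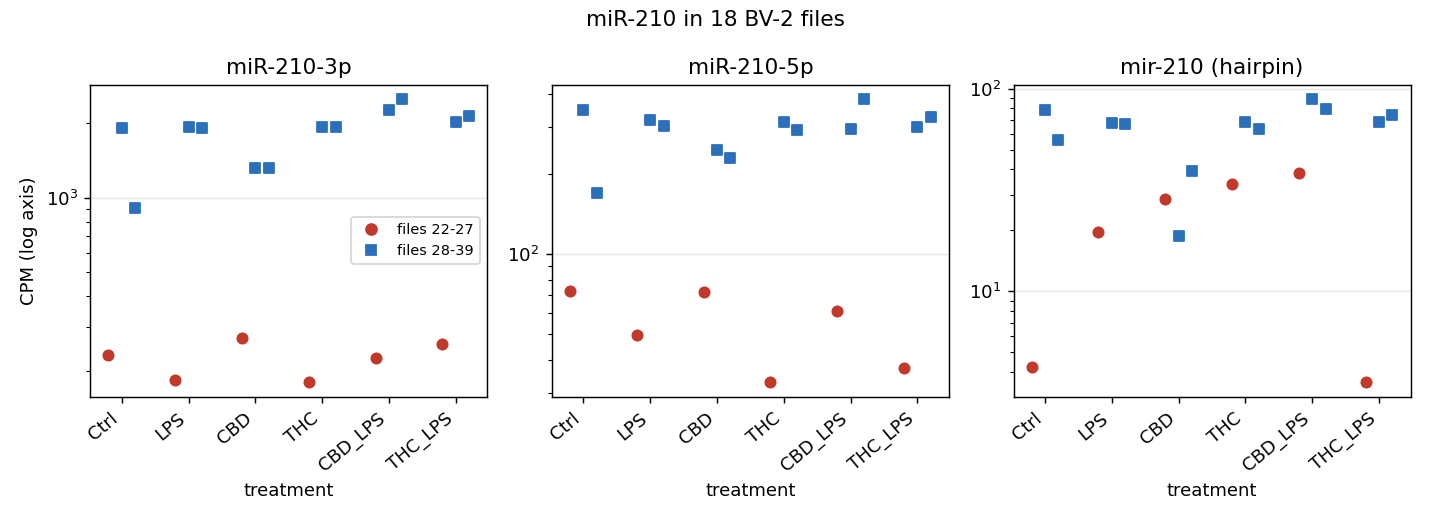
CPM of miR-210-3p, miR-210-5p and the mir-210 hairpin (log axes) in each of the 18 files by treatment, 1 point a file, circles for files 22 to 27 and squares for files 28 to 39. Both arms show every circle below every square, with Ctrl 34 the lowest square at 911 and 170 CPM, whereas the hairpin's circle lies between the squares in CBD.

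Of the other features past the rule with at least 100 reads, those with the largest negative differences were miR-187-5p, miR-3964, miR-664-3p, miR-3069-3p, miR-187-3p, miR-1843a-5p, miR-139-5p, mir-3968, miR-100-5p and miR-342-3p, from -2.09 to -1.68. miR-664-3p, from an intron of Rab3gap2, was at 36.1 to 80.8 CPM (median 57.5) in files 22 to 27 and at 117 to 293 (median 262) in files 28 to 39. miR-1843a-5p was at 69.6 to 108 CPM against 156 to 442, and its near copy miR-1843b-5p at 31.8 to 61.7 against 88.5 to 209. miR-342-3p, from an intron of Evl and known in myeloid cells, was at 172 to 268 CPM (median 226) against 492 to 823 (median 735), and the mir-342 hairpin also passed the rule. miR-139-5p, from an intron of Pde2a, was at 13.5 to 36.2 CPM against 48.9 to 114. miR-100-5p, which targets the kinase mTOR as does miR-99a-5p, was at 22.9 to 30.2 CPM against 46.6 to 141. The ranges of these 6 miRNAs did not overlap between the blocks. miR-187-5p (0 to 5.23 CPM against 3.16 to 28.4) and miR-3069-3p (0 to 7.11 against 8.10 to 22.2) rest on few reads, 141 and 149 over all files. In Ctrl 34, miR-664-3p, miR-1843a-5p, miR-139-5p, miR-100-5p and miR-342-3p each had their lowest value of the 12 files 28 to 39.

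**Figure D2:**
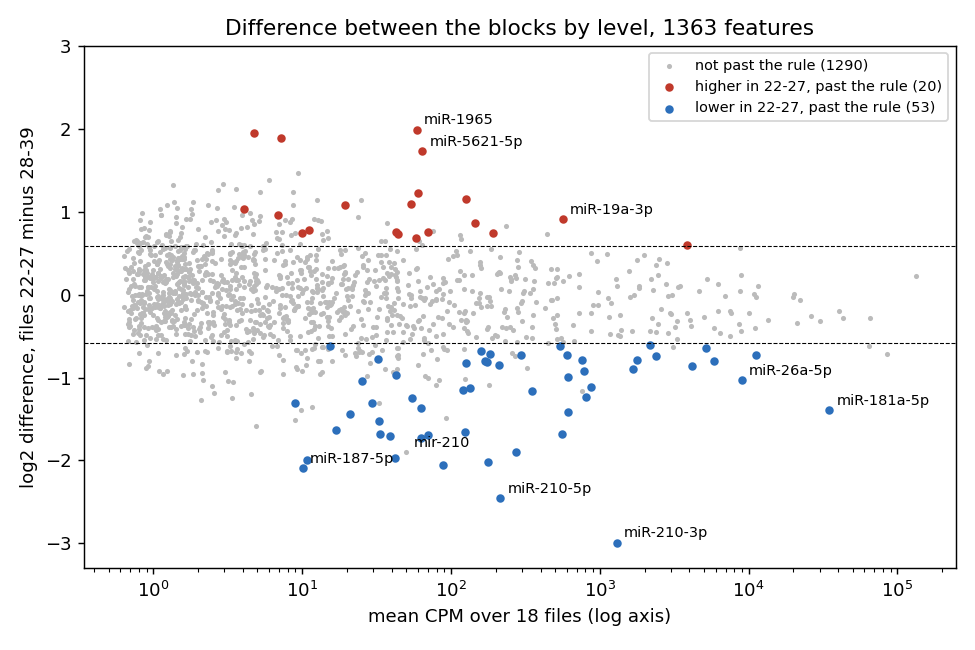
Mean CPM over the 18 files (log axis) against the log2 difference between the blocks (files 22 to 27 minus files 28 to 39) for the 1363 tested features, with the 20 higher and 53 lower features past the rule in red and blue and dashed lines at 1.5-fold. miR-210-3p is the lowest point at -2.99, and miR-181a-5p, at -1.40, is the most abundant of the coloured points.

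Named here for their read numbers, after their values were seen, are the most abundant miRNAs that passed the rule. miR-181a-5p, known for tuning antigen receptor signalling in lymphocytes, had 475986 reads. It took 1.51% to 2.32% of the reads in files 22 to 27 and 2.58% to 4.63% in files 28 to 39, or 12026 to 21865 CPM (median 16142) against 22853 to 52218 (median 45799). The difference was -1.40 (SE 0.16), 2.63-fold lower in the block, and Ctrl 34 was the lowest of the 12 at 22853 CPM. miR-26a-5p, a regulator of the histone methyltransferase Ezh2, was at 4667 to 6406 CPM against 8116 to 12592, a difference of -1.03 (SE 0.10). Both its hairpins passed the rule too, mir-26a-1 at -1.04 and mir-26a-2 at -1.67. They lie in introns of Ctdspl and Ctdsp2. miR-221-3p and miR-222-3p, which repress the cell cycle inhibitor p27, differed by -0.72 (SE 0.11) and -0.74 (SE 0.11), and the ranges of both overlapped between the blocks. Their ratio within a file was 3.53 to 5.80 in files 22 to 27 and 3.54 to 5.79 in files 28 to 39.

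Relatives with the same seed did not differ by the same amount. miR-181b-5p differed by -0.30 (SE 0.07), miR-181d-5p by -0.53 (SE 0.16) and miR-181c-5p by -1.49 (SE 0.23), and none of the 3 passed the rule. The ratio of miR-181a-5p to miR-181b-5p in a file was 3.79 to 5.67 (median 4.63) in files 22 to 27 and 5.56 to 12.7 (median 11.8) in files 28 to 39, where Ctrl 34 gave the lowest ratio. miR-26a-5p exceeded miR-26b-5p 1.58- to 2.31-fold in the block and 3.11- to 3.83-fold outside it. miR-93-5p exceeded miR-106b-5p 4.16- to 5.16-fold against 5.72- to 8.75-fold, and let-7c-5p over let-7f-5p gave 0.120 to 0.185 against 0.218 to 0.292. In the other direction, miR-19a-3p over miR-19b-3p gave 0.228 to 0.279 against 0.147 to 0.204. The ranges of the last 4 ratios did not overlap between the blocks. These pairs were chosen after their values were seen.

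Neighbours in a cluster, which can share a primary transcript, also differed unequally. In the miR-106b-25 cluster, within Mcm7, miR-93-5p passed the rule at -0.80 (SE 0.08), while miR-25-3p stood at 0.04 (SE 0.08) and miR-106b-5p at -0.12 (SE 0.08). In the miR-17-92 cluster of Mir17hg, a driver of proliferation, miR-19a-3p passed at 0.91 (SE 0.09), with miR-18a-5p at 0.49, miR-19b-3p at 0.38, miR-92a-3p at 0.23, miR-17-5p at 0.11 and miR-20a-3p at -0.21 short of it. The cluster on chromosome X from Mir450b to Mir322 held features past the rule on both sides, miR-450b-5p at 0.86 (SE 0.14) and miR-322-3p at -0.85 (SE 0.10), with miR-450a-5p at 0.04. In the cluster of Mir23b, Mir27b and Mir24-1 on chromosome 13, miR-24-3p, miR-27b-3p and miR-23b-5p lay at -0.64, -0.61 and -0.62, of which miR-27b-3p did not pass, since it was not on the same side in each treatment. miR-24-3p is also made from Mir24-2, whose neighbours miR-27a-3p and miR-23a-3p stood at -0.01 and -0.35. Members past the rule in introns of Clcn5 were miR-500-3p at -0.77 and miR-501-3p at -0.68. The mir-501 hairpin, with 51 reads, passed on the other side at 1.04.

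Among the features higher in files 22 to 27, miR-1965 differed most. It lay at 107 to 130 CPM (median 113) in files 22 to 27 and at 11.97 to 54.5 (median 30.2) in files 28 to 39, a difference of 1.99 (SE 0.22), 3.97-fold higher, and the mir-1965 hairpin followed at 1.09 (SE 0.22). miR-5621-5p was at 51.9 to 233 CPM against 17.5 to 42.0, with its 2 highest values in THC_LPS 27 and Ctrl 22. miR-2136 was at 60.9 to 142 CPM against 31.9 to 54.5. miR-19a-5p and miR-19a-3p differed by 1.09 (SE 0.19) and 0.91 (SE 0.09). miR-19a-3p was at 680 to 931 CPM (median 817) against 352 to 536 (median 435). Of these, miR-1965, miR-5621-5p, miR-2136 and both arms of miR-19a did not overlap between the blocks. The remaining features of the 12 named were mir-717, miR-450b-5p, mir-374b, miR-193a-3p, miR-1983 and mir-1895, at 1.15 to 0.74. mir-717, from an intron of Gpc3, reached 255 CPM in Ctrl 28 and overlapped between the blocks. Of all features past the rule, 37 of the 53 lower and 9 of the 20 higher did not overlap. Over all 1363 tested features, 40 did not overlap with lower values in the block and 11 with higher. The rule favours such features, so nothing is read from these counts.

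**Figure D3:**
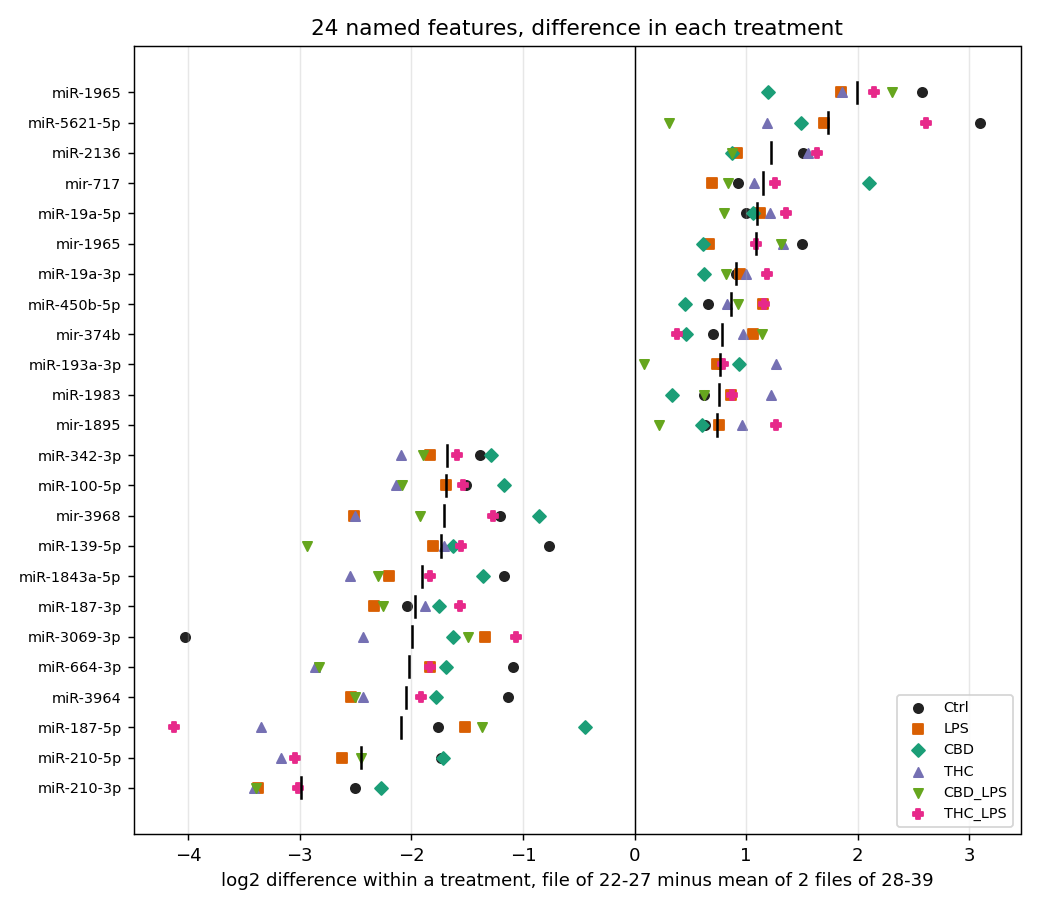
Log2 difference in each treatment (the file of 22 to 27 minus the mean of the 2 files of 28 to 39) for the 12 features with the largest positive and the 12 with the largest negative differences, 1 symbol a treatment, with a black bar at the mean. Each row lies on 1 side of 0, as the rule required, and the rows differ in spread, from 0.80 to 1.36 in miR-19a-5p to -4.12 to -0.44 in miR-187-5p.

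The files 28 to 39 were not alike in the features of the lower set. Over its 53 members, the median deviation from the median of files 28 to 39 was -0.88 to -1.45 on the log2 scale in files 22 to 27. It was -0.62 in Ctrl 34, -0.37 in CBD 30 and -0.36 in CBD 36, and between -0.01 and 0.15 in the other 9 files. Ctrl 34 held the lowest value of the 12 files for 35 of the 53 features. Over the 20 higher features the same measure was 0.65 to 1.08 in files 22 to 27 and -0.21 to 0.19 in files 28 to 39, where Ctrl 34 stood at 0.12. Without Ctrl 34 the rule passed 70 features lower and 25 higher. The TMM factor of Ctrl 34 was 1.13, above those of the other 11 files of 28 to 39, which reached at most 0.987.

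**Figure D4:**
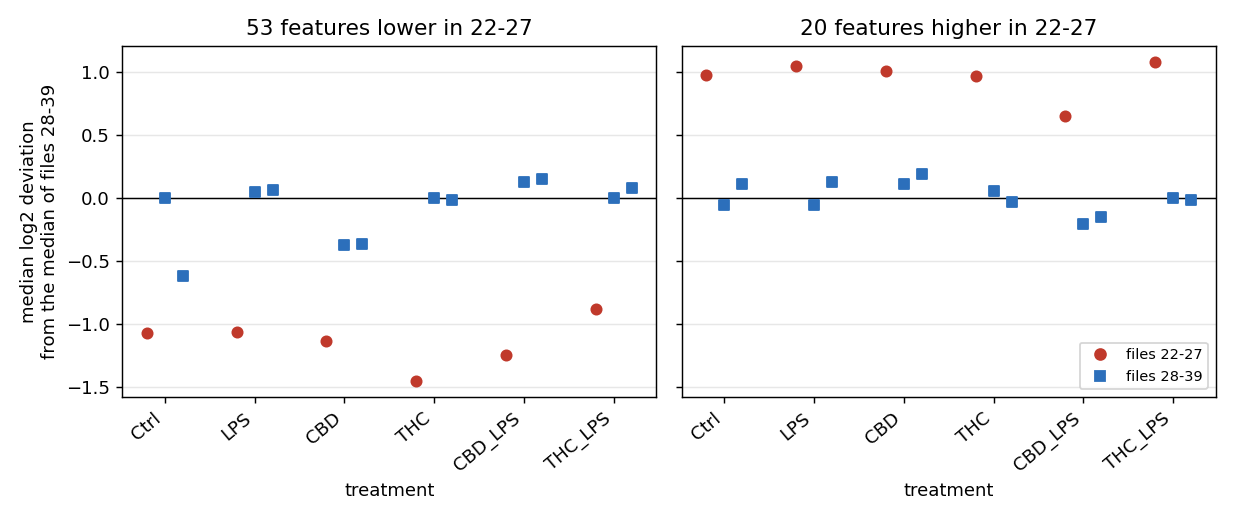
Median log2 deviation of each file from the median of files 28 to 39, over the 53 features lower (left) and the 20 higher (right) in files 22 to 27, by treatment, circles for files 22 to 27 and squares for files 28 to 39. In the left panel Ctrl 34, at -0.62, and both CBD squares, at -0.37 and -0.36, lie below the other squares, and in the right panel all squares lie within 0.21 of 0.

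Lists of related miRNAs were described by their counts and their median difference, beside 53 lower, 20 higher and a median of -0.02 over all tested features. Among the 661 features with at least 100 reads, 10.4% passed in either direction, and the lists were not matched for reads. Of 43 features of miRNAs other than miR-210 that have been described as induced by low oxygen, 6 passed as lower and none as higher, with a median of -0.28 and a range of -1.67 to 0.47. The 6 were miR-181a-5p, miR-24-3p, miR-23b-5p, miR-26a-5p and both mir-26a hairpins. Of 31 features of Toll-like receptor signalling, 4 were lower, both arms of miR-187 and miR-221-3p and miR-222-3p, with a median of -0.19. Of 10 blood-lineage features, both arms of miR-223, a miRNA of the myeloid lineage, were lower, miR-223-3p at 48.5 to 85.0 CPM against 85.1 to 178. The mir-223 hairpin, at -0.90 (SE 0.21), lay below in 5 treatments and did not pass. The median over all 10 was 0.21, and the 3 features of miR-142 stood at 0.24 to 0.48. Of the 18 features of the miR-17-92 cluster 2 were higher and none lower, with a median of 0.30. The cluster's features took 18.2% of the reads in files 22 to 27 and 13.2% in files 28 to 39. These are shares of reads without the TMM factor. miR-92a-3p alone had 1776922 reads over the 18 files, with a difference of 0.23. The miR-30 family, the 14 tested features of the p53-linked miR-34, miR-192, miR-194 and miR-215, and the 54 tested features of the imprinted Dlk1-Dio3 cluster had no member past the rule. Of the 12 higher and 48 lower mature miRNAs, 9 and 43 could be matched by name to a sequence. Their median GC content was 47.6% and 50.0%, beside 50.0% over the 600 matched miRNAs of all 721 tested.

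Of 104 pairs of arms with at least 100 reads each, 27 had an arm past the rule, and in 7 of these both arms passed in the same direction. In 18 the other arm had a difference of the same sign, and in 2 of the opposite sign, miR-139-3p at 0.46 (SE 0.27) beside miR-139-5p, and the 5p arm of miR-331 beside its 3p arm. By share, 8.32% of the tested mature miRNAs and 2.02% of the hairpins passed. Read numbers were not matched between these classes. A hairpin and its mature form could also differ. The mir-3968 hairpin was 3.27-fold lower in the block, at 9.94 to 18.6 CPM against 20.97 to 71.5, while mature miR-3968 stood at 0.10 (SE 0.08).

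Treatment and block were balanced, so a block term could be added to the test of treatment. With it, the F test of treatment (5 effects, limma) passed 42 features at the adjusted p threshold of 0.1, which is 3.08%, and without it 24, or 1.76%. All 24 were among the 42. The 18 gained include miR-221-3p (limma adjusted p 0.00698 with the term and 0.526 without), miR-222-5p (0.0152 and 0.240) and miR-146a-5p (0.0556 and 0.232). miR-221-3p was at 6620 CPM in Ctrl 22 and 9746 in LPS 23, and at 10246 and 7308 in the Ctrl files 28 and 34 and 16249 and 17235 in the LPS files 29 and 35, so it was higher with LPS in either block from a lower start in files 22 to 27. The other 5 of the 8 gained with the smallest p were mir-5117, mir-1900, mir-5097, miR-3968 and miR-1957a. The block term takes 1 shift for all treatments. Of the 8, miR-221-3p (limma adjusted p 0.0371), miR-146a-5p (0.00768) and mir-5097 (0.00301) passed the treatment-by-block test below, and the others did not. Of the 42, 3 also passed the rule between the blocks, beside 73 of all 1363 tested features, so nothing is read from this number. The median residual SD was 0.731 with the term and 0.752 without. In files 28 to 39 alone, 248 features passed. There both CBD files, 30 and 36, have a low share of the abundant hairpins (0.160% and 0.151%). CBD and that share cannot be told apart in this count. With the block term, leaving out CBD 36 gave 22 and leaving out CBD 24 gave 82. Because the block was proposed from these files, the gain is not independent evidence for the block.

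The response to LPS was compared between the blocks, a contrast that the rule did not use. The LPS effect here sets LPS, CBD_LPS and THC_LPS together against Ctrl, CBD and THC, and is not LPS against Ctrl alone. At the same threshold no feature of 1363 (0%) had a different LPS effect by limma. The smallest adjusted p was 0.638, and 42 features had an unadjusted p of at most 0.05. edgeR and DESeq2 on the recovered reads also passed none, with 32 and 19 features at that unadjusted p. miR-155-3p was at 13.9 to 19.1 CPM without LPS and 318 to 539 with it in files 22 to 27, against 8.26 to 19.8 and 366 to 432 in files 28 to 39. Its LPS effect was 4.62 on the log2 scale in files 22 to 27 and 4.95 in files 28 to 39, a difference of -0.33 (SE 0.34, limma adjusted p 0.999). For miR-155-5p the effects were 3.05 and 3.38, a difference of -0.33 (SE 0.25). miR-146a-5p gave 0.97 and 0.67 with a difference of 0.29 (SE 0.29), and miR-21a-5p gave 0.99 and 0.76 with a difference of 0.23 (SE 0.14). The full treatment-by-block test below did pass miR-155-5p (limma adjusted p 0.0472), miR-146a-5p (0.00768), mir-146a (0.0147), miR-21a-5p (0.0824) and mir-21a (0.0395). It did not pass miR-155-3p (0.854), mir-155 (0.639), miR-146a-3p (0.999) or miR-21a-3p (0.254). For miR-210-3p the LPS effect was -0.03 in files 22 to 27 and 0.50 in files 28 to 39, a difference of -0.53 (SE 0.30, limma adjusted p 0.999). In files 28 to 39 it was at 1933 and 1907 CPM in LPS, 2251 and 2493 in CBD_LPS and 2009 and 2129 in THC_LPS. Without LPS it was at 1908 and 911 CPM in Ctrl, 1313 and 1320 in CBD and 1927 and 1918 in THC. The standard errors leave room for differences of some size.

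The full treatment-by-block test, with 6 residual degrees of freedom, passed 215 features (15.8%) by limma at this threshold, 103 hairpins and 112 mature miRNAs. Of these, 11 passed the rule between the blocks, beside 73 of all 1363 tested features, so nothing is read from that overlap. In 196 the difference between the blocks had both signs over the treatments. The same count over all tested features was not made. The smallest p belonged to mir-6361. It was at 0 in Ctrl 22, CBD 30 and CBD 36, at 1.78 CPM in THC_LPS 27, and at 152 to 306 CPM in the other 14 files. mir-6364, miR-1199-3p, mir-6236 and mir-6243 were also lowest in these 4 files. miR-1199-3p was at 15.02 to 24.9 CPM in the 4 and 179 to 549 CPM in the others. The summed level of mir-6243, mir-6236 and mir-6240 differed between the blocks by -3.91 in Ctrl, -0.06 in LPS, 3.21 in CBD, 0.63 in THC, 0.58 in CBD_LPS and -2.85 in THC_LPS. Among the 215 features, 123 were likewise above in CBD and below in Ctrl and THC_LPS. The 215 were picked by a test on these same values, and this order was not counted over all tested features, so nothing is read from the 123. With the summed level as a covariate 109 features passed, and without the treatments Ctrl, CBD and THC_LPS none did. Leaving out Ctrl 22 gave 140, Ctrl 28 gave 325 and Ctrl 34 gave 326. Block 22 to 27 holds 1 file a treatment, so a difference between treatments and a difference between single files cannot be told apart there. The labels do not say whether Ctrl 22, THC_LPS 27, CBD 30 and CBD 36 were prepared in another way, and an exchange of labels between files was not tested. Either could change the differences within Ctrl, CBD and THC_LPS and the count of 215. miR-155-5p was at 1248 CPM in Ctrl 22, 1292 in CBD 30 and 1407 in CBD 36. The other 6 files without LPS were at 499 to 1024 CPM. It was at 8934 in THC_LPS 27, within the 6580 to 9334 of the 9 files with LPS. The mir-325 hairpin, picked after its values were seen, was at 152 CPM in CBD 24, 111 in CBD 30 and 82.2 in CBD 36. It was at 7.21 to 57.4 in the other 15 files, the highest of them Ctrl 22. The values of these miRNAs are no test of an exchange of labels. Both arms of miR-210 lay below files 28 to 39 in each treatment, but by unequal amounts. The limma adjusted p for treatment by block was 0.0898 for miR-210-5p, 0.152 for miR-210-3p and 0.000202 for the hairpin.

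**Figure D5:**
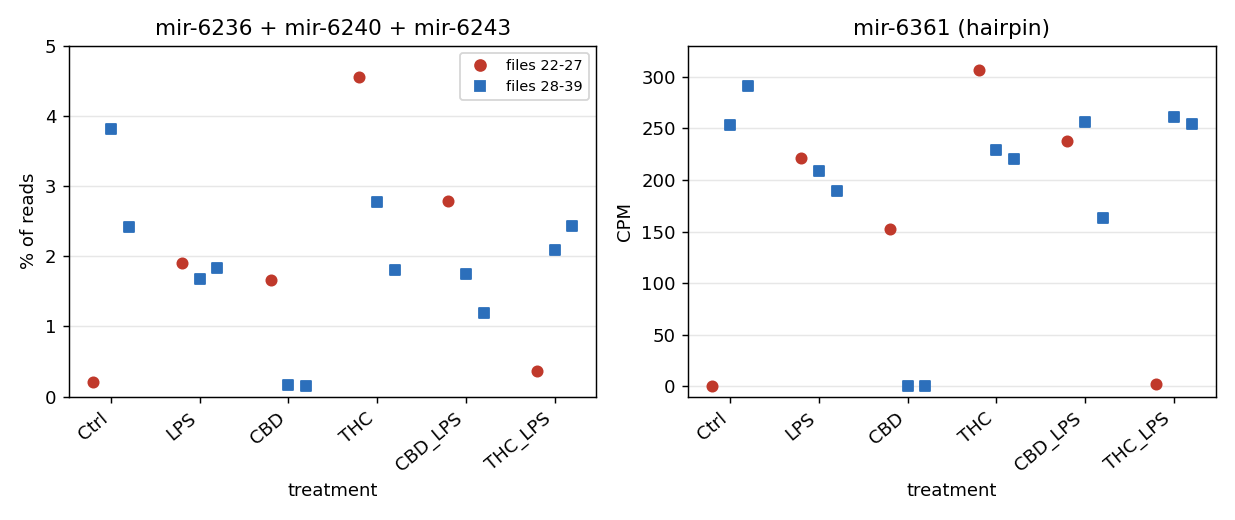
Share of reads on mir-6243, mir-6236 and mir-6240 together (left, percent) and CPM of mir-6361 (right) in each file by treatment, circles for files 22 to 27 and squares for files 28 to 39. The circles of Ctrl and THC_LPS and both squares of CBD lie near 0 in both panels, at most 0.361% and 1.78 CPM.

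Depth, which the rule did not use, was lower in files 22 to 27. They held 442718 to 782757 reads (median 680267) against 541844 to 1057147 (median 840571) in files 28 to 39. Within treatment the ratio was 0.796, below in 5 of 6 treatments, with a two-sided exact permutation p of 0.0137 over the 729 ways to choose 1 file of each treatment, of which the smallest possible is 0.00137. Without THC_LPS the p was 0.0658 by the same exact permutation test. The test moved single files within a treatment and not whole runs of numbers. It measures the spread between files and cannot show that blocks differ beyond the spread between runs. The part of depth in the differences above was not tested. Spearman's correlation over the 1363 features was 0.881 to 0.913 between the 2 files of 28 to 39 of a treatment. Between either of them and the file of 22 to 27 it was 0.789 to 0.896, lower in each treatment on its own. The split was drawn from these same values, so nothing is read from the correlations. The part of depth in them was not tested. In Ctrl the chi-square a degree of freedom was 23.6 between the 2 files of 28 to 39. It was at least 23.8 between either of them and the file of 22 to 27. In the other treatments these values were 1.96 to 4.92 and at least 18.6.

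At the limit of 10 reads, 42 features had 10 reads and 29 had 11, and were tested, such as miR-31-5p with 2 reads in files 22 to 27 and 8 in files 28 to 39, and mir-34c with the same. Another 47 features with 9 reads were not, such as miR-1a-3p with 4 and 5 and mir-375 with 3 and 6. Of the 2134 features, 771 were not tested and 95 of these had no read in any file. All 53 lower features and 16 of the 20 higher ones had at least 100 reads, as had 661 of those tested, and the other 4 higher features, mir-6417, miR-1935, mir-501 and mir-30f, had 51 to 94.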

How the data were processed

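The files of 18 small-RNA libraries of BV-2 cells were read, 1 file a library, and grouped by the treatment and the number in their titles. By the study's methods, the authors aligned the reads with BWA (also named in the submitters' processing notes) to the mouse sequences of miRBase, with at most 10 mappings a read, counted them for known miRNAs and analysed them with edgeR. The release of miRBase used for alignment is not given in the sources used here, nor is how a read with several mappings was counted, so near-identical miRNAs are uncertain. The values the authors deposited are CPM over the library size times a TMM factor. Deposited files whose factor is under 1 sum above a plain CPM total and were recorded as a score of the same kind. Each value was a whole multiple of its file's smallest value above 0 to within 5.06e-05 of a read, so whole reads were recovered for 100% of values.

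From the files, log2(CPM + 1) was fitted with limma 3.58.1 (R 4.3.3) with a mean-variance trend over all features with at least 10 reads, with the 6 treatments and the block as terms. Folds of low features are understated on this scale. The F test of treatment, the LPS-by-block and the treatment-by-block coefficients were tested with Benjamini-Hochberg adjustment at 0.1. The difference between the blocks was not tested. Depth was compared by an exact permutation test within treatment. Named were the 12 features past the rule with the largest differences on each side and at least 100 reads, all features of miR-210, miR-155, miR-146a and miR-21a, the other arm and hairpin of a named miRNA, the reference miRNAs and the abundant hairpins, the 8 treatment effects with the smallest p gained with the block term and the 5 interactions with the smallest p. The members and lists were chosen with earlier results of these data known. edgeR 4.0.16 and DESeq2 1.42.0 on the recovered reads, other scalings, filters and pseudocounts, and leaving out each file were tried as alternatives. The fits were tested on simulated data. Sequences and gene positions are from RefSeq (GRCm38.p6), where 600 of 721 tested mature miRNAs (83.2%) matched by name, and host genes from GENCODE M21. Nothing says that the 3 files of a treatment came from separate cultures, so p-values measure the spread between files, which may be technical. Pairs of files of a treatment differed beyond sampling noise, with a chi-square of at least 1.96 a degree of freedom.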

Additional observations from a re-analysis of the deposited data

Results flagged for a closer look

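The difference between the blocks varied with the treatment in 215 features, by limma's test of treatment by block. The 5 with the smallest limma adjusted p were mir-6361 (1.51e-12), mir-6364 (5.51e-09), miR-1199-3p (7.50e-09), mir-6236 (9.00e-09) and mir-6243 (9.00e-09). All 5 were lowest in Ctrl 22, THC_LPS 27, CBD 30 and CBD 36. In the block of files 22 to 27 each treatment is 1 file, so treatment and file cannot be told apart there. Dixon's criterion for 6 values was applied to the within-treatment differences of the 12 features furthest in each direction and of the miRNAs named by family, and set no treatment apart from the other 5.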

How the results depend on the processing

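The 47 named differences between the blocks kept their sign wherever the main difference was at least 1.5-fold, over 14 other settings and 18 fits without 1 file each. For features past the rule this was largely set in advance. Each treatment differed to the same side, so leaving out 1 file could not turn the sign. Counts moved more. The features past the rule, 53 lower and 20 higher, became 35 and 49 with library size alone and 21 and 90 scaled by miR-103-3p and miR-191-5p. They were 5 and 8 of hairpins alone, with 12 higher of mature miRNAs alone. Without files 22, 27, 30 and 36 they were 138 and 112, where the rule covers only LPS, THC and CBD_LPS. The treatment count with a block term, 42, became 18 for hairpins alone, 22 for mature miRNAs alone, 70 with the abundant hairpins as a covariate, 248 in files 28 to 39 alone and 24 with no block term. In files 28 to 39 both CBD files have a low share of the abundant hairpins, which cannot be told apart from CBD there. The treatment-by-block count, 215, became 102 for hairpins alone, 119 for mature miRNAs alone, 104 by DESeq2, 109 with the covariate, and 0 without Ctrl, CBD and THC_LPS, an alternative chosen after seeing the data that leaves 3 residual degrees of freedom. In that last fit the cause was not tested. Where hairpins or mature miRNAs stood alone, fewer features were tested. Without 1 file each, 51 to 76 features were lower and 20 (as without LPS 29) to 33 (without CBD 24) higher, the treatment count was 22 (without CBD 36) to 82 (without CBD 24), and the treatment-by-block count 140 (without Ctrl 22) to 326 (without Ctrl 34). The LPS-by-block count was 0 in each setting. The depth difference of -0.329 (log2) was -0.232 without THC_LPS, where the exact permutation p rose to 0.0658. Each title number is used once, but the numbers form 3 runs with every treatment in each (22 to 27, 28 to 33 and 34 to 39). With the runs as a replicate block, an alternative chosen after seeing the data, the counts were 39 for treatment, 0 for LPS by block and 214 for treatment by block, and no named call changed. Deviations of files of 1 run from their treatment means correlated above 0.1 in 16 of 45 pairs, and 10 of 18 files correlated best with their own run. The median correlation was 0.114 in files 22 to 27, 0.0558 in 28 to 33 and 0.0295 in 34 to 39, against -0.029 across runs. The runs were not taken as pairs in the main fits, and whether files of a run share a deviation was not tested. Depth limits features near 3 reads a file, the floor for counting error.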
